A study of Mus musculus with 18 samples.

Results

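The 53 genes described here encode the machinery of DNA replication and S phase: proteins that license origins, unwind DNA, copy and join strands, repackage chromatin, supply deoxynucleotides and guard or time the process. They were taken by symbol from a table of 21003 gene symbols, and all 53 were found in it. All 53 also reached 10 counts in at least 3 libraries, the rule for keeping them, and all 53 passed the low-count filter of every test. The scarcest was E2f2, which reached 10 counts in 11 of 18 libraries, followed by Ung in 14.

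Mouse LT-HSCs were profiled, long-term haematopoietic stem cells that sit in bone marrow in small number and can rebuild all of the blood. The series compares such cells cultured at 2 values of pH, and its title names polyamine metabolism. Each library was made from 100 sorted LT-HSCs, with 6 libraries in each of 3 groups. The mice were 8 to 12 weeks old and are labelled c57 B6 WT as genotype and B6.SJL in the growth protocol. The fresh group was not cultured and is labelled pH 7.4. The pH 7.4 group was cultured for 48 h in IMDM with 10% fetal bovine serum. The pH 6.9 group was cultured for 48 h in medium adjusted beforehand to pH 6.9. Both cultures received the same cytokines, SCF and G-CSF among them (50 ng/ml), and were kept at 37 °C, 5% CO2 and 3% oxygen. The design text speaks of 6 individual mice, numbered 1 to 6 in each group. Every odd-numbered library of a group carries one first sequencing index and every even-numbered library another, so the 3 groups split into 6 sets, each with its own first index.

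Before a cell enters S phase, the origin recognition complex, Cdc6 and Cdt1 load the Mcm2-7 helicase onto origins, and geminin prevents loading from happening again. Cdc45 and the GINS complex then turn the helicase on, primase and the replicative polymerases copy DNA held to the template by the PCNA clamp, and the E2F transcription factors drive much of this gene set. LT-HSCs in the marrow are mostly quiescent, and cytokines in culture draw them into the cell cycle.

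Promoter letters were examined because E2F binding is the feature these genes are best known to share. RefSeq promoter windows of 300 bases (250 before and 50 after an annotated start, GRCm38.p6) were matched by symbol to 44 of the 53 genes, in 50 windows. The 8-base strings TTTCGCGC, TTTGGCGC and TTTCCCGC, which resemble E2F binding sites, were searched on both strands, overlaps included. At least one of them lay in 17 of 50 windows (34.0%), against 606 of all 32851 windows (1.84%). The base composition differed too, with a median G+C content of 61.3% in these windows and 52.7% in all windows. A match is a string of letters and was not tested as a binding site. The first 4 stretches below belong to the genes with a match and the smallest adjusted p for a difference between odd-numbered and even-numbered mice. Those of Mcm5 and Mcm6, helicase subunits, were added after their values were seen, because in both a pair of matches overlaps. Capitals mark the matched letters, each stretch reads 5′ to 3′ along the gene's own strand, and the name gives the gene.
Lig1: cgccaaagtgcGCGCGAAAtctgtgtggcg
Rfc3: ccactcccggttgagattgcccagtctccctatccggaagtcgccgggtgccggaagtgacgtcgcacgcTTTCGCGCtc
E2f2: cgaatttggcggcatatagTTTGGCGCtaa
Pole2: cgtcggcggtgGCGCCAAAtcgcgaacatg
Mcm5: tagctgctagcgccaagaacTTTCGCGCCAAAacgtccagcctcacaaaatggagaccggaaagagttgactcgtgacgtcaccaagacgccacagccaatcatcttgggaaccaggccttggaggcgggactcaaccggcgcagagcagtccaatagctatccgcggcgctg
Mcm6: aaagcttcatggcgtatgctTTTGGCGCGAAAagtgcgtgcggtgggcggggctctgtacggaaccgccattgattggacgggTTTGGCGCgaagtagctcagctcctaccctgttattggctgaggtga

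On GRCm38.p6 these stretches lie at chr7:13278841-13278870 (plus strand) for Lig1, chr5:151651209-151651288 (minus) for Rfc3 and chr4:136172294-136172323 (plus) for E2f2. The others lie at chr12:69228162-69228191 (minus) for Pole2, chr8:75109336-75109508 (plus) for Mcm5 and chr1:128359706-128359835 (minus) for Mcm6. The Rfc3, Mcm5 and Mcm6 stretches end at the base before the annotated start. The other 3 fall just after a start, or across it for Pole2. The other genes with a match were Mcm3, Mcm7, Cdc6, Cdt1, Orc1, Gins3, Pola1, Pold1, Clspn, Dtl and Msh6.

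Total counts ran from 1640817 to 7508120 per library in 15 libraries, each with 11225 to 12792 genes detected. The other 3 libraries stood apart. Fresh replicate 1 held 6311 counts over 3035 genes. Fresh replicate 4 and pH 6.9 replicate 3 were of ordinary depth but had 9408 and 8925 genes detected. The 13 LT-HSC marker genes, among them Kit, Procr, Hlf and Mecom, were all detected in each of the 6 sets of those 15 libraries. All 53 replication genes had counts in every one of the 15 libraries, against 29 in fresh replicate 1, 52 in fresh replicate 4 and 51 in pH 6.9 replicate 3. Group comparisons below use all 18 libraries, and comparisons within odd-numbered or even-numbered mice use the 15.

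Replication genes were expressed at a similar summed level in the 15 libraries, fresh or cultured. Their sum, as CPM (each library's counts scaled to a common total), was lowest at 10222 (pH 6.9 replicate 2) and highest at 13505 (pH 7.4 replicate 2), a ratio of 1.32 (mean 11803 ± 1028, SD, n = 15). By set, the mean sum was 11530 ± 64.7 in fresh odd-numbered mice (SD, n = 2), 11943 ± 480 in fresh even-numbered mice (n = 2), 11660 ± 1228 and 13128 ± 471 at pH 7.4 (odd and even, n = 3 each), 11275 ± 926 at pH 6.9 odd (n = 2) and 11063 ± 1126 at pH 6.9 even (n = 3). The uncultured libraries lay inside the range of the cultured ones. In even-numbered mice the sums at pH 7.4 (12600 to 13505) all lay above those at pH 6.9 (10222 to 12342). In odd-numbered mice they overlapped (10425 to 12881 and 10620 to 11929). The sums were not tested. In bulk libraries, fewer cells in S phase and less RNA per cell cannot be told apart.

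Single genes varied more than their sum, whose coefficient of variation (SD as a percent of the mean) was 8.71%. Over the 15 libraries the coefficient of single genes had a median of 24.4%, was under 20% in 16 genes and under 30% in 43. Steadiest were Slbp (11.1%), which encodes the histone mRNA binding protein, the primase subunit gene Prim2 (12.8%) and Mcm6 (12.9%). Ung, a uracil glycosylase gene of low level, varied most (70.9%), followed by E2f2 (54.0%), the ribonucleotide reductase subunit gene Rrm2 (39.2%) and Mcm10 (39.0%). Per kilobase of transcript, the mean level over the 15 libraries was highest for Pcna (406 CPM per kb), then Slbp (321), Mcm6 (235), Rrm2 (227) and Tipin (213). Within the Mcm2-7 ring, whose subunits assemble in equal number, the level per kilobase fell in the order Mcm6, Mcm3 (130), Mcm7 (120), Mcm4 (112), Mcm5 (91.2) and Mcm2 (67.1). E2f2 was the lowest of all 53 at 0.867 CPM per kb.

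**Figure D1:**
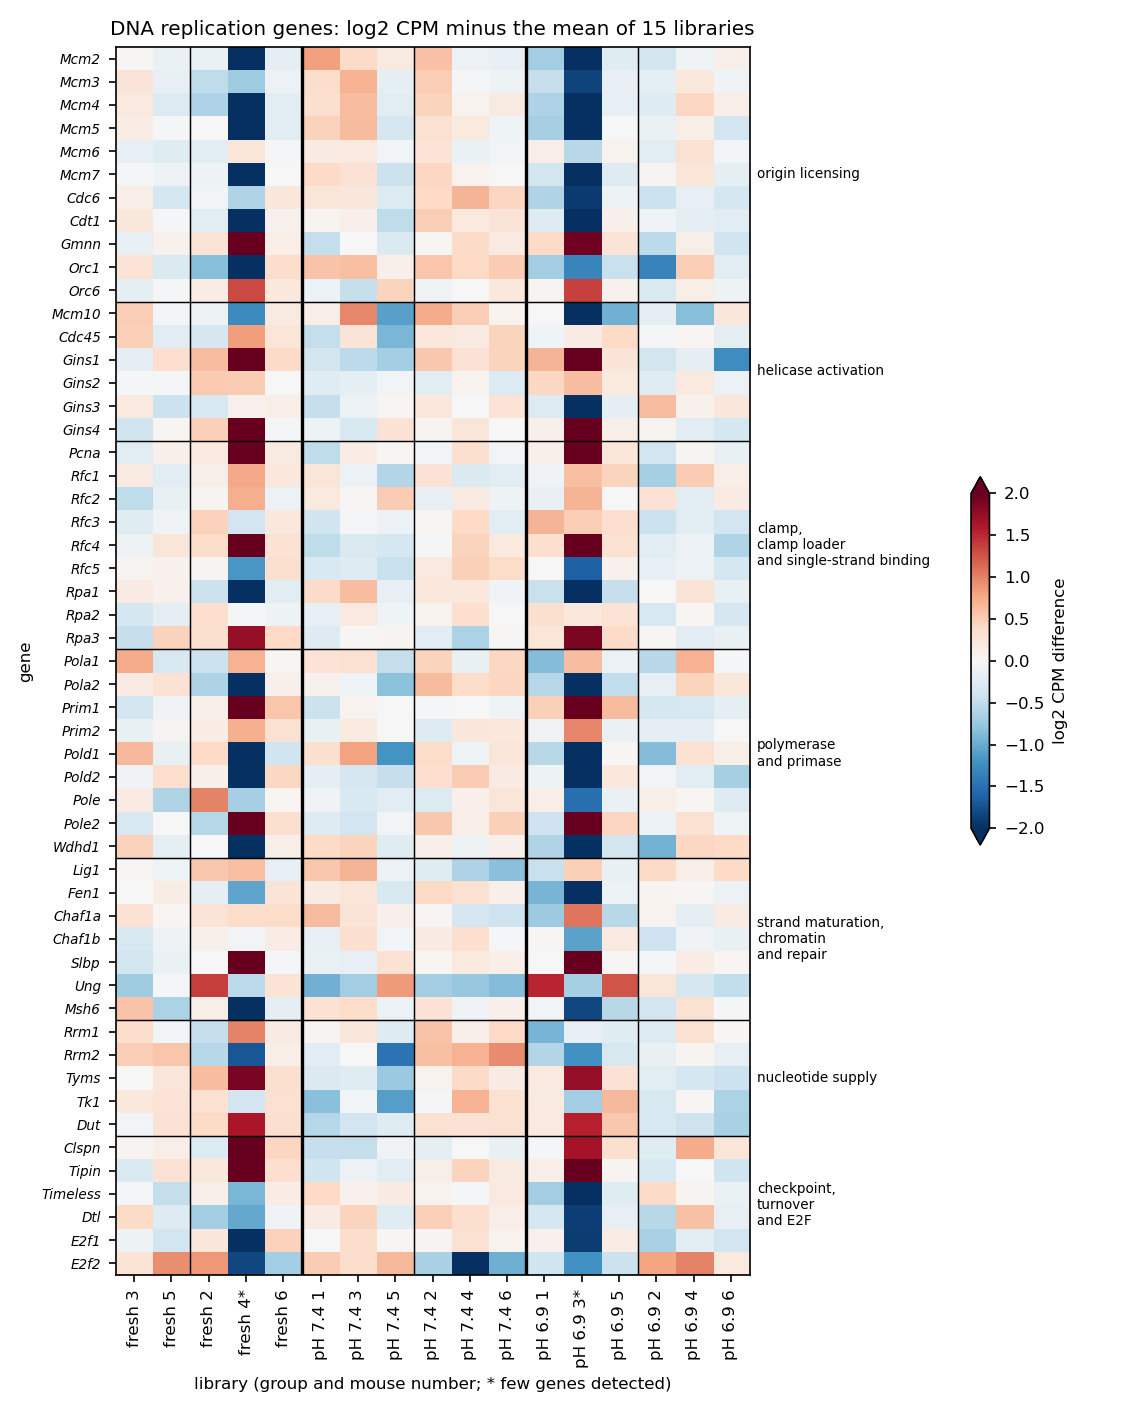
Log2 CPM of the 53 genes (rows, grouped by role) in 17 libraries (columns), as the difference from each gene's mean over the 15 libraries; fresh replicate 1 is not drawn and the colour stops at 2 either way. The 15 libraries show small differences, while fresh replicate 4 and pH 6.9 replicate 3, marked with asterisks, have blocks of high and low genes at the same rows.

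Over all 18 libraries, no replication gene passed the test in any comparison of groups. With edgeR's quasi-likelihood test (Benjamini-Hochberg adjustment, threshold 0.05), 0 of 53 genes were called between pH 7.4 and fresh, 0 between pH 6.9 and pH 7.4 and 0 between pH 6.9 and fresh. The background was the same, with 0% of 10104 genes called in each comparison. At an unadjusted p under 0.05 there were 2, 1 and 0 of the 53 genes, in that order. DESeq2 and limma-voom with quality weights also called 0 of the 53 in each comparison, and limma-voom had 8, 15 and 2 genes at an unadjusted p under 0.05. The median log2 fold change of the 53 genes was -0.02 for pH 7.4 over fresh (all genes 0.08), -0.10 for pH 6.9 over pH 7.4 (all genes -0.01) and -0.06 for pH 6.9 over fresh (all genes 0.02). Positive fold changes were found in 26, 23 and 17 of the 53 genes, and with DESeq2 size factors in place of TMM in 28, 24 and 25. The fold changes had a median SE of 0.44, 0.43 and 0.44, and only Prim1 and Gins1 exceeded 1 on the log2 scale, in the first and second comparison. The 18 libraries include the 3 that stood apart, among them fresh replicate 1, where a single count was worth 80.2 CPM. In the fit of sets, without those 3, the median SE for pH 6.9 over pH 7.4 was 0.26 (odd) and 0.22 (even). Group comparisons without the 3 libraries are not given here, so the lack of calls does not show that the groups were alike.

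Values of the helicase and clamp genes show this overlap. Mcm6 ran from 240 to 1202 CPM with a median of 896 in fresh libraries, from 932 to 1233 (median 1062) at pH 7.4 and from 689 to 1258 (median 1025) at pH 6.9. Pcna, which encodes the sliding clamp, had medians of 671, 604 and 640 CPM, with its highest values of 3030 and 3090 in fresh replicate 4 and pH 6.9 replicate 3. Cdc6, the helicase loader gene, had the smallest unadjusted p for pH 6.9 against pH 7.4 (0.0184, adjusted p = 0.997, log2 fold change -0.81 ± 0.32, SE). It ran from 78.8 to 154 CPM at pH 7.4 and from 23.7 to 88.8 at pH 6.9, so the groups overlapped. The lowest and highest fresh values of Mcm6 came from fresh replicates 1 and 4. The lowest pH 6.9 values of Mcm6 and Cdc6 came from pH 6.9 replicate 3. With these libraries included, no gene of the 53 had groups that did not overlap, against 0.435%, 0.297% and 0.109% of all genes in the 3 comparisons.

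Within the odd-numbered and the even-numbered mice, the same pH comparison gave calls. Of 13 genes called in either set, 2 were called in both, Dut and Gins1, each in opposite directions. In odd-numbered mice 10 of the 53 genes differed between pH 6.9 and pH 7.4 (edgeR's quasi-likelihood test), 7 higher and 3 lower at pH 6.9, where 10.6% of 11226 genes were called (4.93% higher, 5.64% lower). In even-numbered mice 5 of 53 did, 1 higher and 4 lower, where 6.24% of genes were called (2.68% higher, 3.55% lower). The difference between the 2 pH effects (even minus odd) was called for 13 of 53, 2 positive and 11 negative, where 17.2% of genes were called (8.72% and 8.51%). Libraries did not overlap between the 2 values of pH for 25 of 53 genes in odd-numbered mice, where this held for 37.6% of genes, and for 19 of 53 in even-numbered mice, where it held for 31.2%. The 13 genes of the difference, all with opposite signs in the 2 sets of mice, were Dut, Tyms, Tk1, Gins1, Rfc3, Rfc4, Rfc5, Gmnn, Prim1, Pold2, Tipin, Lig1 and Chaf1a. Choosing genes by that difference favours opposite signs, so their signs are no separate result. Over all 53, 28 had opposite signs, 20 were lower at pH 6.9 in both sets and 5 higher in both. With DESeq2 size factors these counts were 30, 18 and 5. The share of all genes with opposite signs is not given here. The median log2 fold change of the 53 was 0.00 in odd-numbered mice (all genes -0.08) and -0.24 in even-numbered mice (all genes 0.07), where 41 of 53 were negative.

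**Figure D2:**
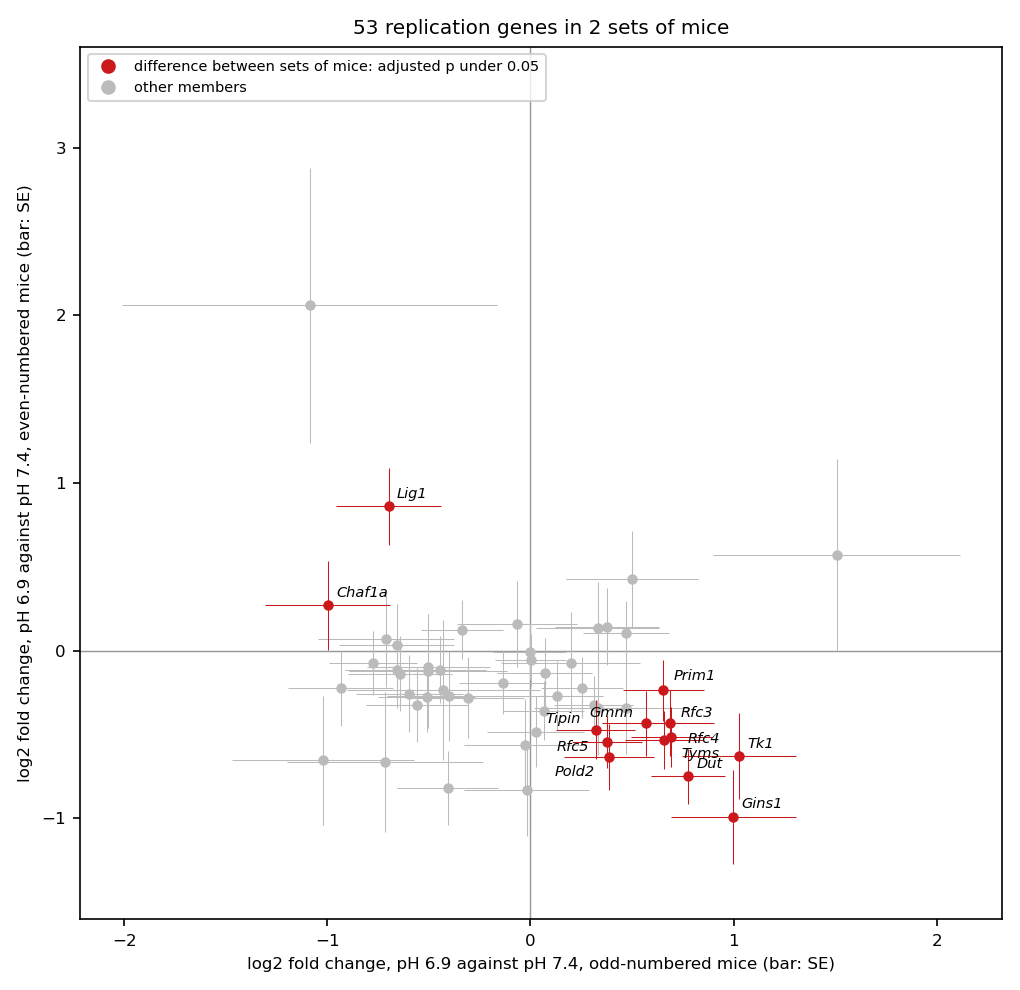
Log2 fold change of pH 6.9 over pH 7.4 for each of the 53 genes in odd-numbered mice (horizontal) and in even-numbered mice (vertical), with bars of 1 SE; red marks the 13 genes whose difference between the sets was called. Dut, Gins1, Tk1 and Tyms lie in the lower right corner, and Lig1 and Chaf1a in the upper left.

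These counts rested on few libraries, 2 or 3 per set. Leaving out 1 library moved the odd-numbered count from 10 to 0 without pH 7.4 replicate 1, to 4 without pH 7.4 replicate 3, to 12 without pH 7.4 replicate 5 and to 2 without either pH 6.9 replicate 1 or pH 6.9 replicate 5. The even-numbered count of 5 went to 2, 1 and 0 without pH 7.4 replicates 2, 4 and 6, and to 1, 2 and 0 without pH 6.9 replicates 2, 4 and 6. The count of 13 for the difference ranged from 8, without pH 7.4 replicate 4, to 14. Dut, Gins1, Tyms, Tk1, Rfc4, Rfc5 and Lig1 stayed called in the difference whichever of the 11 libraries was left out. With the mouse number as a block, the odd-numbered count was 2 (Dut and Tk1), the even-numbered count 4 (all but Rfc5), and the difference 11, of which 10 were among the 13 (all but Chaf1a, Pold2 and Tipin). With all 18 libraries in the fit, all 3 counts were 0. Since each set of mice has its own first index at each pH, pH and index cannot be told apart within a set.

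Of the 11 origin licensing genes, 1 passed in odd-numbered mice and 1 in even-numbered mice, both lower at pH 6.9. Mcm2 encodes a subunit of the replicative helicase. Its level at pH 7.4 was 387, 286 and 247 CPM in mice 1, 3 and 5, and at pH 6.9 it was 134 and 186 CPM in mice 1 and 5. Every pH 6.9 library of these mice lay below every pH 7.4 library, and Mcm2 fell by 0.94 ± 0.26 (log2, SE, adjusted p = 0.0262). Leaving out pH 7.4 replicate 1 or pH 6.9 replicate 1 ended the call, and the adjusted p ran from 0.0153 to 0.231 over the 5 libraries left out in turn. In even-numbered mice the Mcm2 levels of 327, 202 and 196 CPM at pH 7.4 overlapped those of 168, 209 and 236 at pH 6.9 (log2 fold change -0.22 ± 0.22).

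Cdc6 passed in even-numbered mice. It stood at 126, 154 and 129 CPM at pH 7.4 in mice 2, 4 and 6 and at 70.2, 84.7 and 75.2 CPM at pH 6.9. The libraries did not overlap, and Cdc6 fell by 0.82 ± 0.22 (log2, adjusted p = 0.0331), a call that was lost with any 1 of the 6 libraries left out (adjusted p from 0.0589 to 0.106) and kept with the mouse number as a block (0.0418). In odd-numbered mice the log2 fold change was -0.41 ± 0.25 and the libraries overlapped.

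Gmnn encodes geminin, the inhibitor of Cdt1. In mice 1, 3 and 5 its level was 129, 181 and 148 CPM at pH 7.4, against 238 and 217 CPM in mice 1 and 5 at pH 6.9. They were 184, 235 and 205 CPM at pH 7.4 and 125, 196 and 138 CPM at pH 6.9 in even-numbered mice. Neither comparison passed, with log2 fold changes of 0.57 ± 0.22 and -0.43 ± 0.19, while their difference of -1.0 ± 0.29 did (adjusted p = 0.0226). The difference lost its call without any of pH 7.4 replicates 1 and 4 and pH 6.9 replicates 1, 2 and 6, up to an adjusted p of 0.0666.

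No other licensing gene passed within a set. Mcm6, the helicase subunit of highest level, had a log2 fold change of 0.00 ± 0.18 in odd-numbered mice and -0.01 ± 0.16 in even-numbered mice. Mcm3, Mcm4 and Mcm5, further subunits, had fold changes of -0.64 ± 0.25, -0.66 ± 0.26 and -0.60 ± 0.26 (log2) in odd-numbered mice, none past the threshold. Cdt1, which escorts the helicase to origins, in odd-numbered mice was at 94.9, 98.4 and 64.1 CPM (pH 7.4) against 75.3 and 98.8 CPM (pH 6.9). Orc1, the largest subunit of the origin recognition complex, had non-overlapping odd-numbered libraries (51, 52.8 and 36.8 against 20.4 and 25.4 CPM) without passing (-1.02 ± 0.45, adjusted p = 0.154). All 11 licensing genes had negative fold changes in even-numbered mice, and 8 of 11 in odd-numbered mice.

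Among the 6 genes of helicase activation, Gins1 carried the calls. Gins1 encodes a subunit of the GINS complex, which joins Cdc45 and Mcm2-7 in the active helicase. In odd-numbered mice it stood at 35.8, 32.6 and 28.5 CPM at pH 7.4 (32.3 ± 3.64, SD, n = 3) and at 74 and 56.1 CPM at pH 6.9 (65.1 ± 12.7, n = 2). In even-numbered mice it stood at 68.2, 57.5 and 63.6 CPM at pH 7.4 (63.1 ± 5.40, n = 3) and at 35.4, 40.7 and 19.4 CPM at pH 6.9 (31.8 ± 11.1, n = 3). Libraries overlapped in neither set, and the direction was opposite. Gins1 rose by 1.0 ± 0.31 (log2, adjusted p = 0.0435) in odd-numbered mice and fell by 0.99 ± 0.28 (adjusted p = 0.0411) in even-numbered mice. The difference of -1.99 ± 0.42 was the largest of the 13 in size (adjusted p = 0.00275, and at most 0.0137 with any 1 library left out). Within odd-numbered mice alone, the call was lost with any 1 of 5 libraries left out (adjusted p up to 0.242), and with the block (0.123). The even-numbered call was lost in 5 of 6 such fits, all but that without pH 6.9 replicate 4 (up to 0.183), and kept with the block (0.0461).

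The other 5 helicase activation genes passed in neither set. Cdc45 had fold changes of 0.47 ± 0.31 and -0.34 ± 0.28 (log2) in odd-numbered and even-numbered mice, and Gins2 of 0.47 ± 0.21 and 0.10 ± 0.19. Mcm10, a scaffold that the firing helicase needs, had -0.72 ± 0.48 and -0.66 ± 0.42, with overlapping libraries in both sets. Exons of Gins2 share 67.3% of their bases with Gse1 on the other strand, and the library kit keeps no strand, so reads of the 2 genes cannot be told apart there.

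Among the 9 genes of the clamp, clamp loader and single-strand binding, 3 passed in odd-numbered mice and 1 in even-numbered mice. Replication factor C opens the PCNA ring, and Rfc3, Rfc4 and Rfc5 encode small subunits of it. Rfc4 in odd-numbered mice was at 145, 171 and 166 CPM (pH 7.4) against 262 and 258 CPM (pH 6.9). It was at 205, 285 and 240 CPM at pH 7.4 and 179, 193 and 137 CPM at pH 6.9 in even-numbered mice. Rfc4 rose by 0.69 ± 0.20 (log2, adjusted p = 0.0320) in the former and had a fold change of -0.51 ± 0.18 in the latter (adjusted p = 0.0991), with no overlap of libraries in either. Its difference was -1.21 ± 0.27 (adjusted p = 0.00436).

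Rfc3, the gene with the E2F-type letters printed above, was at 98.7, 129 and 120 CPM at pH 7.4 and at 209 and 166 CPM at pH 6.9 in odd-numbered mice, and it rose by 0.69 ± 0.22 (log2, adjusted p = 0.0471). In even-numbered mice it was at 134, 173 and 113 CPM and at 96.9, 112 and 100 CPM, without passing (-0.43 ± 0.20). Rfc5 passed in even-numbered mice instead, where 341, 412 and 381 CPM at pH 7.4 stood above 266, 274 and 233 CPM at pH 6.9 (-0.55 ± 0.16, adjusted p = 0.0431). In odd-numbered mice Rfc5 was at 240, 248 and 218 CPM and at 296 and 315 CPM (0.38 ± 0.17, adjusted p = 0.174). Differences between the sets were -1.12 ± 0.29 for Rfc3 (adjusted p = 0.0121) and -0.92 ± 0.23 for Rfc5 (adjusted p = 0.00996). Without pH 6.9 replicate 1 the difference for Rfc3 was no longer called (adjusted p = 0.0579). Within a set, the Rfc3 and Rfc5 calls were lost with any 1 library left out, and that of Rfc4 without pH 7.4 replicate 1 or 3 or pH 6.9 replicate 1 or 5 (adjusted p up to 0.132).

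Rpa1, which encodes the large subunit of the single-strand binding complex RPA, went the other way in odd-numbered mice. It was at 371, 434 and 254 CPM at pH 7.4 and at 207 and 206 CPM at pH 6.9, a fall of 0.78 ± 0.22 (log2, adjusted p = 0.0287). The 2 groups did not overlap, and the call was lost without any of pH 7.4 replicates 1 and 3 and pH 6.9 replicates 1 and 5 (adjusted p up to 0.149). Rpa2, its partner, was at 296, 381 and 313 CPM at pH 7.4 and 416 and 404 CPM at pH 6.9 in these mice (0.31 ± 0.19). The large and middle subunits of one complex had fold changes of opposite sign, of which only that of Rpa1 passed. Pcna had 430, 677 and 619 CPM at pH 7.4 and 650 and 721 CPM at pH 6.9 in odd-numbered mice (0.25 ± 0.20), and -0.22 ± 0.18 in even-numbered mice.

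Of 9 polymerase and primase genes, only Prim1 passed within a set. Prim1 encodes the catalytic subunit of primase, which lays the RNA primers. In odd-numbered mice it was at 140, 201 and 191 CPM at pH 7.4 and at 264 and 295 CPM at pH 6.9, a rise of 0.66 ± 0.20 (log2, adjusted p = 0.0412). That call was lost without any of pH 7.4 replicates 1 and 3 and pH 6.9 replicates 1 and 5 (up to 0.213), and with the block (0.0575). In even-numbered mice it was at 185, 191 and 180 CPM and at 148, 152 and 168 CPM (-0.24 ± 0.18). Pold2, the second subunit of polymerase delta, in odd-numbered mice was at 141, 129 and 118 CPM (pH 7.4) against 150 and 187 CPM (pH 6.9), and at 204, 232 and 183 against 156, 140 and 102 CPM in even-numbered mice. Pold2 passed in neither set (0.39 ± 0.22 and -0.63 ± 0.20). Differences were called for Prim1 (-0.89 ± 0.27, adjusted p = 0.0280) and Pold2 (-1.02 ± 0.30, adjusted p = 0.0227). Leaving out single libraries raised these to at most 0.111, lost without pH 7.4 replicate 1, 2, 4 or 6 or pH 6.9 replicate 2, 4 or 5, and 0.124, lost without pH 7.4 replicate 4 or pH 6.9 replicate 5 or 6.

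Prim2, the other primase subunit gene, ran only from 91.9 to 135 CPM over the 15 libraries. Pold1, Pola1 and Pole2, of polymerases delta, alpha and epsilon, had fold changes of -0.43 ± 0.48, -0.50 ± 0.39 and 0.33 ± 0.31 (log2) in odd-numbered mice and -0.24 ± 0.42, -0.12 ± 0.34 and -0.34 ± 0.28 in even-numbered mice. None of the 3 passed in either set, and their libraries overlapped.

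Among the 7 genes of strand maturation, chromatin assembly and repair, Lig1 and Chaf1a carried the calls, in the direction opposite to that of Dut and Gins1. Lig1 encodes the ligase that joins Okazaki fragments. In odd-numbered mice the level was 296, 329 and 188 CPM at pH 7.4, against 149 and 184 CPM at pH 6.9. It was at 173, 134 and 114 CPM at pH 7.4 and at 265, 225 and 269 CPM at pH 6.9 in even-numbered mice. The sets did not overlap in either case. Lig1 rose by 0.86 ± 0.23 (log2, adjusted p = 0.0315) in even-numbered mice and had -0.70 ± 0.26 in odd-numbered mice (adjusted p = 0.0916), with a difference of 1.56 ± 0.35 (adjusted p = 0.00435). The even-numbered call was lost without any of pH 7.4 replicates 4 and 6 and pH 6.9 replicates 2, 4 and 6 (adjusted p up to 0.177), while the difference kept an adjusted p of at most 0.0315.

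Chaf1a, the large subunit of chromatin assembly factor 1, was at 56.3, 43.9 and 38.8 CPM at pH 7.4 and at 21 and 25 CPM at pH 6.9 in odd-numbered mice, a fall of 1.0 ± 0.31 (log2, adjusted p = 0.0440). In even-numbered mice it was at 36.8, 28.7 and 27.3 CPM and at 37.7, 32 and 41 CPM (0.27 ± 0.26). The difference was 1.27 ± 0.40 (adjusted p = 0.0365), and it was lost without any of pH 7.4 replicates 1, 4 and 6 and pH 6.9 replicates 1, 2, 5 and 6 (up to 0.130). The odd-numbered call was lost without any of pH 7.4 replicates 1 and 3 and pH 6.9 replicates 1 and 5 (up to 0.224). Some 52.5% of the exonic bases of Chaf1a overlap Ubxn6 on the other strand, and 84.2% of those of Fen1, the flap endonuclease gene, overlap Tmem258 and Gm10143. Chaf1b, the partner of Chaf1a, had fold changes of 0.06 ± 0.20 and -0.36 ± 0.18, Fen1 of -0.51 ± 0.24 and -0.28 ± 0.21, and Slbp of 0.00 ± 0.17 and -0.06 ± 0.15 in odd-numbered and even-numbered mice.

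Genes of deoxynucleotide supply held the smallest adjusted p of the 53. Dut encodes the dUTPase that keeps uracil out of DNA. In odd-numbered mice it was at 212, 242 and 268 CPM at pH 7.4 (241 ± 28.1, SD, n = 3) and at 362 and 462 CPM at pH 6.9 (412 ± 70.8, n = 2). In even-numbered mice it was at 390, 388 and 392 CPM at pH 7.4 (390 ± 1.79, n = 3) and at 253, 238 and 201 CPM at pH 6.9 (231 ± 26.5, n = 3). Each group lay wholly apart from the other, in opposite order. Dut rose by 0.78 ± 0.18 (log2, adjusted p = 0.0118) in odd-numbered mice and fell by 0.75 ± 0.17 (adjusted p = 0.0118) in even-numbered mice. The difference was -1.53 ± 0.25 (adjusted p = 0.000361, at most 0.00505 with 1 library left out, and 0.0692 with all 18 libraries). The odd-numbered call was lost without pH 7.4 replicate 1 or pH 6.9 replicate 5 (up to 0.146), and the even-numbered call without pH 7.4 replicate 6 or pH 6.9 replicate 6 (up to 0.0777). Fresh libraries had 304 and 389 CPM in odd-numbered mice and 416 and 397 CPM in even-numbered mice. The level of Dut in pH 7.4 odd-numbered libraries was near that in pH 6.9 even-numbered libraries, and that in pH 7.4 even-numbered libraries near that in pH 6.9 odd-numbered and fresh ones.

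Tyms encodes thymidylate synthase, which makes dTMP from dUMP. It was at 245, 254 and 179 CPM at pH 7.4 (226 ± 40.9, n = 3) and at 345 and 369 CPM at pH 6.9 (357 ± 16.6, n = 2) in odd-numbered mice. It was at 315, 392 and 336 CPM (mean 348) and at 260, 235 and 223 CPM (239 ± 19.2, n = 3) in even-numbered mice. The libraries again did not overlap, and the order was opposite. Tyms rose by 0.66 ± 0.19 (log2, adjusted p = 0.0346) in odd-numbered mice, with -0.53 ± 0.17 in even-numbered mice (adjusted p = 0.0788) and a difference of -1.19 ± 0.26 (adjusted p = 0.0038).

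Tk1 encodes thymidine kinase, the salvage route to dTMP. It was at 98.3, 170 and 81.6 CPM at pH 7.4 (mean 117) and at 199 and 278 CPM at pH 6.9 (238 ± 56.1, n = 2) in odd-numbered mice, a rise of 1.03 ± 0.28 (log2, adjusted p = 0.0256). In even-numbered mice it was at 172, 287 and 218 CPM (226 ± 58.0, n = 3) and at 140, 182 and 114 CPM (145 ± 34.1, n = 3), which overlapped (-0.63 ± 0.26). The difference was -1.66 ± 0.38 (adjusted p = 0.00546). The odd-numbered calls were lost for Tk1 without pH 7.4 replicate 1 or 5 or pH 6.9 replicate 5 (up to 0.222), and for Tyms without these or pH 6.9 replicate 1 (up to 0.167).

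Neither ribonucleotide reductase gene passed. In odd-numbered mice Rrm1, the large subunit, was at 691, 782 and 558 CPM at pH 7.4, against 349 and 568 CPM at pH 6.9 (-0.56 ± 0.25, adjusted p = 0.163). Rrm2, the S-phase subunit, was at 398, 457 and 164 CPM and at 304 and 368 CPM (-0.02 ± 0.31). In even-numbered mice Rrm2 stood at 699, 743 and 885 CPM at pH 7.4 and at 413, 477 and 408 CPM at pH 6.9, without overlap and without passing (-0.83 ± 0.27, adjusted p = 0.0827). All 5 genes of nucleotide supply had negative fold changes in even-numbered mice (median -0.63) and 3 of 5 passed upwards in odd-numbered mice (median 0.66).

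**Figure D3:**
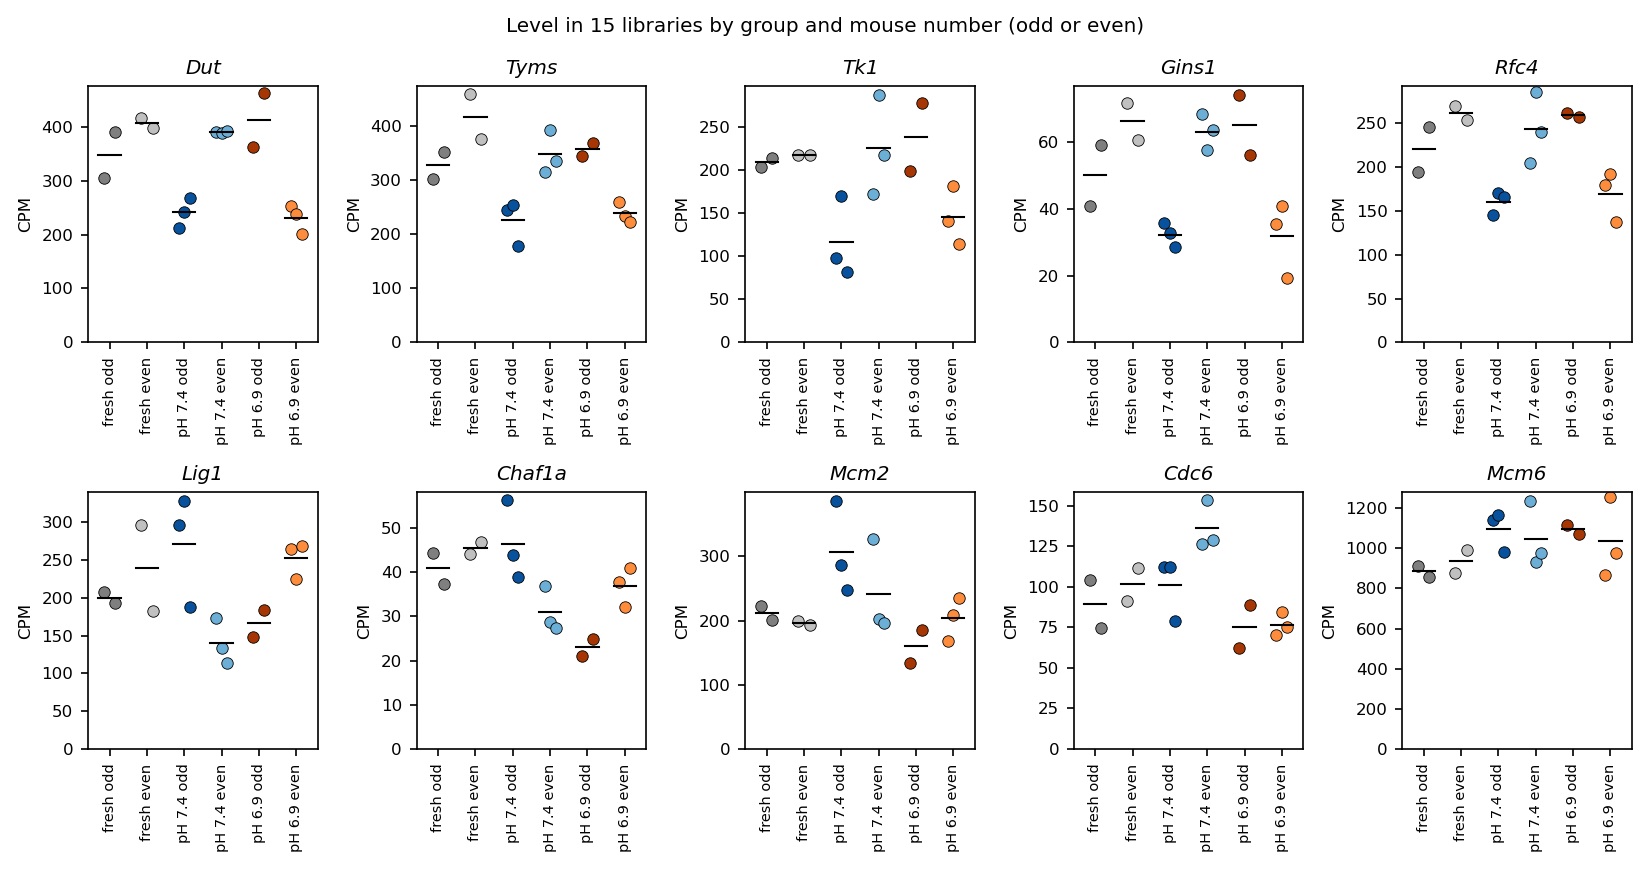
CPM of 10 genes in each of the 15 libraries (points), by group and by odd-numbered or even-numbered mice, with a bar at the mean of each set. For Dut, Tyms, Gins1 and Rfc4 the pH 6.9 points lie above the pH 7.4 points in odd-numbered mice and below them in even-numbered mice, and for Lig1 the order is reversed.

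The 6 genes of fork protection, protein turnover and E2F passed in neither set. Tipin, a fork protection gene, in odd-numbered mice was at 291, 355 and 333 CPM (pH 7.4) against 418 and 399 CPM (pH 6.9). It was at 417, 524 and 436 CPM and at 310, 383 and 294 CPM in even-numbered mice. Fold changes of 0.32 ± 0.20 and -0.47 ± 0.18 (log2) did not pass, and their difference of -0.79 ± 0.26 did (adjusted p = 0.0428, up to 0.102 with 1 library left out, and lost in 8 of 11 such fits, those without pH 7.4 replicate 1, 2, 4 or 6 or pH 6.9 replicate 1, 2, 5 or 6). Clspn, the checkpoint adaptor claspin, had 0.50 ± 0.32 and 0.43 ± 0.29. Dtl, part of the ubiquitin ligase that destroys Cdt1, had -0.40 ± 0.31 and -0.27 ± 0.27. E2f1 was at 33.5, 39.8 and 33.8 CPM at pH 7.4 and at 19.7, 27.2 and 24.6 CPM at pH 6.9 in even-numbered mice, without overlap and without passing (-0.56 ± 0.27, adjusted p = 0.25). E2f2, near the detection limit, ran from 0.381 to 7.48 CPM over the 15 libraries. Of the 17 genes with E2F-type letters 2 were called in the difference, of the 27 with a window but no match 8, and of the 9 without a window 3. Of all genes 17.2% were called there, and a link of the letters to the calls was not tested.

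Culture at pH 7.4 against fresh cells gave no call in either set of mice. In odd-numbered mice 0 of 53 genes passed edgeR's quasi-likelihood test, where 0.107% of genes were called, and in even-numbered mice 0 of 53, where 0.116% were. The difference between the sets had 0 of 53, where 0.0891% were called. At an unadjusted p under 0.05 there were 9, 8 and 6 of the 53 genes. DESeq2 called 0, 0 and 1 of them and limma-voom 0 in each. Licensing genes had positive fold changes in 9 of 11 and 10 of 11 cases in the 2 sets of mice. The 5 nucleotide supply genes were all negative in odd-numbered mice, by 0.15 to 0.95 on the log2 scale.

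Rrm2 had the smallest p of the 53 here, and it was not called. It was at 648 and 672 CPM in fresh odd-numbered libraries against 398, 457 and 164 at pH 7.4 (log2 fold change -0.95 ± 0.30, adjusted p = 0.241). It was at 313 and 504 CPM in fresh even-numbered libraries against 699, 743 and 885 at pH 7.4 (0.95 ± 0.31, adjusted p = 0.241). The sets did not overlap and the order was opposite, with a difference of 1.90 ± 0.43 (adjusted p = 0.125).

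Culture at pH 6.9 against fresh cells gave 0 calls in odd-numbered mice and 3 in even-numbered mice. This comparison shares its pH 6.9 libraries with the one above. In odd-numbered mice 0 of 53 genes passed edgeR's quasi-likelihood test, where 0.49% of genes were called. There 9 of 53 had an unadjusted p under 0.05, DESeq2 called 1 and limma-voom 0. In even-numbered mice 3 of 53 were lower, where 10.1% of genes were called (4.98% higher, 5.17% lower). Dut fell by 0.79 ± 0.18 (log2, adjusted p = 0.0103) from 416 and 397 CPM in fresh cells to the pH 6.9 values given above. Tyms fell by 0.77 ± 0.19 (adjusted p = 0.0153) from 460 and 375 CPM. Gins1 fell by 1.04 ± 0.31 (adjusted p = 0.0377) from 71.8 and 60.6 CPM. In all 3 the libraries did not overlap. The count went to 0 without fresh replicate 2 or pH 6.9 replicate 6 and to 2 without fresh replicate 6 or pH 6.9 replicate 4. With all 18 libraries it was 0. Libraries did not overlap for 26 of 53 genes in odd-numbered mice (43.9% of genes) and for 21 of 53 in even-numbered mice (40% of genes).

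The difference between the sets for pH 6.9 over fresh was called for 6 of 53 genes, 1 positive and 5 negative, where 12% of genes were called (6.39% and 5.63%). Prim1 had the smallest adjusted p. In odd-numbered mice it was at 148 and 181 CPM fresh against 264 and 295 CPM at pH 6.9, and in even-numbered mice at 207 and 280 CPM fresh against 148, 152 and 168 CPM. Neither passed alone (0.77 ± 0.22 and -0.61 ± 0.20), and the difference was -1.38 ± 0.30 (adjusted p = 0.0064, at most 0.0467 with 1 library left out). Rfc3, Dut and Tyms had differences of -1.32 ± 0.32 (adjusted p = 0.0120), -1.04 ± 0.27 (0.0181) and -0.90 ± 0.29 (0.0472). Rpa1 had 0.98 ± 0.32 (0.0499), a call lost with any 1 of 9 libraries left out (0.0632 to 0.198). Ung, which removes uracil from DNA, had -2.94 ± 0.92 (0.0434): it was at 4.65 and 7.67 CPM fresh and 22.8 and 19.6 CPM at pH 6.9 in odd-numbered mice, and at 21.1 and 9.42 CPM fresh and 8.7, 5.99 and 5.58 CPM at pH 6.9 in even-numbered mice. The count of 6 went to 1 without fresh replicate 2 or fresh replicate 3 and to 3 without pH 6.9 replicate 1, 5 or 6, and Prim1 was the one gene kept whichever library was left out. With the mouse number as a block, Dut, Prim1 and Rfc3 stayed called, while Tyms (0.1001), Ung (0.119) and Rpa1 (0.154) did not.

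Other genes of the cell cycle were read beside the 53. Of 49 further replication genes, 3 rose and 0 fell at pH 6.9 in odd-numbered mice, where 4.93% of all genes rose and 5.64% fell. In even-numbered mice 0 rose and 4 fell, where 2.68% of all genes rose and 3.55% fell. The difference was called for 10 (1 positive, 9 negative), against 8.72% and 8.51% of all genes. Dctd and Cdkn1a are named after their values were seen. Dctd, which feeds dUMP to Tyms, rose by 1.55 ± 0.24 (log2, adjusted p = 0.000879) in odd-numbered mice and fell by 1.11 ± 0.22 (adjusted p = 0.00582) in even-numbered mice. Beside the shares of all genes above, 1 of 26 regulators of the G1/S transition rose and 1 fell in each set. These were Cdk4, the kinase that starts S-phase entry, which rose by 0.64 ± 0.19 (adjusted p = 0.0339) and fell by 0.63 ± 0.17 (adjusted p = 0.0316), and Cdkn1a, the inhibitor p21, which fell by 1.56 ± 0.30 (adjusted p = 0.00354) and rose by 2.03 ± 0.26 (adjusted p = 0.000471), odd-numbered mice first in each case.

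Mitosis genes did not share the steadiness of replication genes. The summed CPM of 25 mitosis genes was lowest at 1028 (pH 6.9 replicate 1) and highest at 7452 (fresh replicate 3), a ratio of 7.25 against 1.32 for the 53 replication genes. The steadiness was not particular to the 53. The ratio was 1.33 for the sum of the 26 G1/S regulators and 1.47 for that of the 49 further replication genes. At pH 6.9 in odd-numbered mice the mitosis sum was 1028 and 2343 CPM, against 4795, 5123 and 2302 at pH 7.4 in these mice. At pH 6.9 in even-numbered mice it was 4602, 4591 and 4362 CPM, against 5529, 5522 and 6862 at pH 7.4. The odd-numbered groups overlapped, with pH 7.4 replicate 5 close to pH 6.9 replicate 5, and the even-numbered groups did not. The replication sum of the same odd-numbered pH 6.9 libraries was 10620 and 11929 CPM, within the range of the others. Of the 25 mitosis genes, 8 fell at pH 6.9 in odd-numbered mice (median log2 fold change -1.47), where 5.64% of all genes fell. In even-numbered mice 0 passed (median -0.35), where 3.55% of all genes fell, and 3 of the 25 had an unadjusted p under 0.05 (edgeR's quasi-likelihood test). Against fresh cells 7 of the 25 fell at pH 6.9 in odd-numbered mice (median -2.25), where 0.49% of all genes were called. In even-numbered mice 0 passed against fresh cells (median 0.26), where 10.1% were called. Ccnb2, a mitotic cyclin, fell by 3.48 ± 0.36 (adjusted p = 7.77e-05) in odd-numbered mice.

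**Figure D4:**
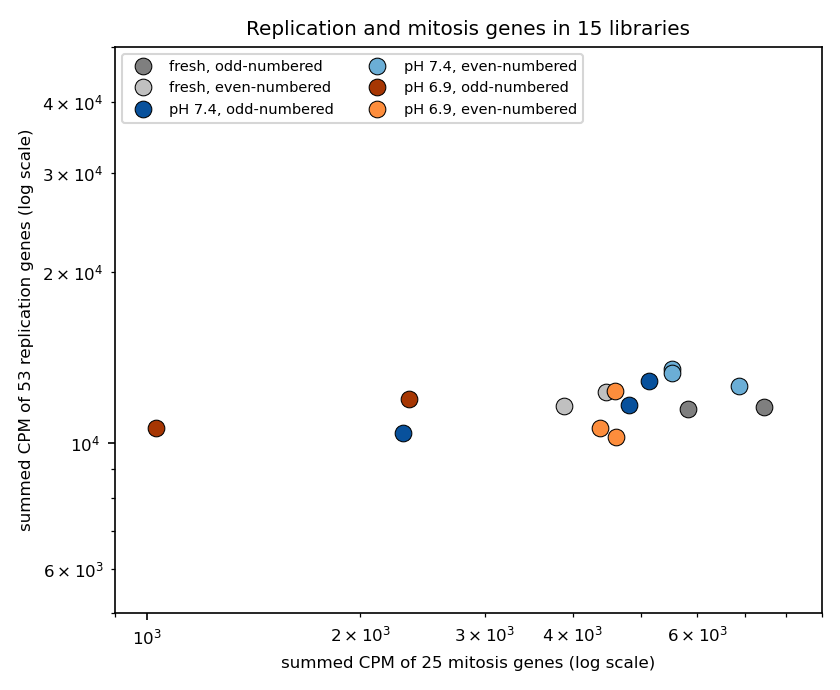
Summed CPM of the 53 replication genes (vertical) against the summed CPM of 25 mitosis genes (horizontal) in each of the 15 libraries, both axes logarithmic. The replication sum stays between 10222 and 13505 while the mitosis sum runs from 1028 to 7452, with pH 6.9 replicate 1 farthest to the left.

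Neutrophil and granule markers also differed between the sets. The summed CPM of 8 neutrophil and granule genes was 1754 to 5106 at pH 7.4 in even-numbered mice and 33.9 to 49.9 at pH 6.9 in even-numbered mice. In odd-numbered mice it was 44.8 to 74.5 at pH 7.4 and 166 to 166 at pH 6.9. Fresh libraries had 76.3 and 5517 in odd-numbered mice and 117 and 271 in even-numbered mice. Fcnb was at 0 in all 15 libraries, S100a8 or S100a9 or both were at 0 in every set, and Elane was at 0 throughout the pH 7.4 odd-numbered libraries. At pH 7.4 the sums of monocyte, erythroid, megakaryocyte and mast cell markers overlapped between odd-numbered and even-numbered mice. Those of lymphoid markers did not (16.6 to 57.8 odd, 95.7 to 169 even). At pH 6.9, of these lists, only the monocyte sums did not overlap (294 to 446 odd, 202 to 271 even). The LT-HSC marker sum was 579 to 854 CPM at pH 7.4 in even-numbered mice, 1470 to 1930 at pH 6.9 in even-numbered mice, 1296 to 1783 at pH 7.4 in odd-numbered mice and 1228 to 1630 at pH 6.9 in odd-numbered mice. The part of these markers in the replication results was not tested.

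Fresh replicate 4 and pH 6.9 replicate 3 shared one pattern across the 53 genes. Each library was set against the mean of the other libraries of its set on the log2 CPM scale. The 2 libraries deviated to the same side in 50 of 53 genes, from -6.10 to 2.35 in the former and from -5.63 to 2.48 in the latter, with r = 0.86 across genes, which are not independent replicates. At least 2-fold higher were 15 and 17 genes, and at least 2-fold lower 21 and 24. The deviation followed the G+C content of the transcript, with r = -0.61 and -0.57 across the 53 genes and -0.35 and -0.38 across 9889 genes. Split at the median G+C content of 49.3%, the lower 27 genes had median deviations of 0.88 and 0.41 and the upper 26 genes -1.06 and -1.55.

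Pcna, at 3030 and 3090 CPM in these 2 libraries, stood far above its range of 430 to 759 CPM in the 15 libraries. Mcm2, at 1.73 and 7.02 CPM, stood far below its range of 134 to 387. Cdt1 had 1.15 CPM in fresh replicate 4 and no count in pH 6.9 replicate 3, where 3 counts would be 2.63 CPM. The summed CPM of the 53 genes was 22498 and 20026 in these 2 libraries. Their TMM factors of 0.610 and 0.638 raise all of their CPM. Without that factor the sums were 13701 and 12764 CPM, against 10190.5 to 13513 in the 15 libraries, while Pcna remained high at 1845 and 1970 CPM. Counted without the factor, 10 and 10 genes were at least 2-fold higher and 26 and 28 at least 2-fold lower.

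**Figure D5:**
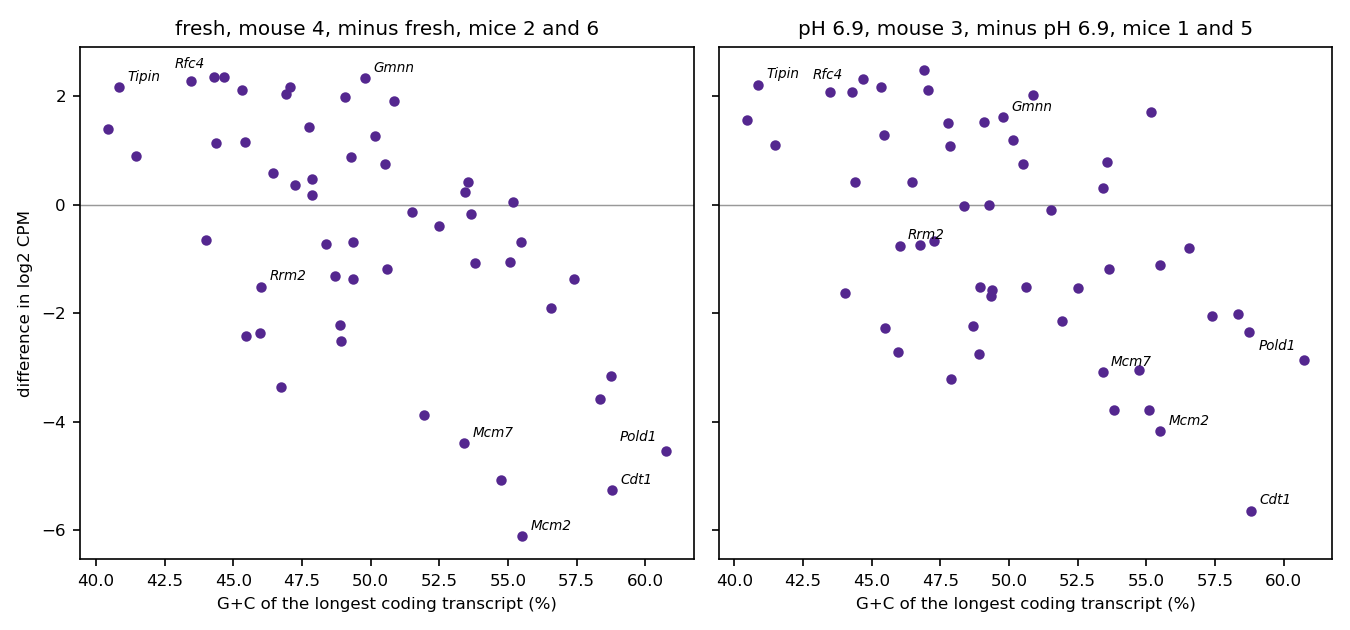
Deviation of the 53 genes in fresh replicate 4 and in pH 6.9 replicate 3 from the mean of the other libraries of their set (log2 CPM, vertical) against the G+C content of the transcript in percent (horizontal), 1 panel per library. Genes of low G+C content lie mostly above 0 and genes of high G+C content mostly below it in both.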

How the data were processed

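RNA of 100 sorted LT-HSCs per library was amplified and tagged with SMART-Seq v4 and Nextera XT, which keep no strand, and read as 75-base pairs on a Hi-Seq 2500, per the labels' protocols. The authors deposited estimated counts per gene in whole numbers. These were made with kallisto on mm10 per the submitters' processing notes. The version, the summing to genes and the rounding are not given in the sources used here.

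Counts were fitted with edgeR 4.0.16 (R 4.3.3; TMM scaling, filterByExpr, robust quasi-likelihood test, Benjamini-Hochberg adjustment over all genes tested, threshold 0.05). One fit covered the 3 groups over 18 libraries (10104 genes). The other covered 6 sets, each a group split by odd or even mouse number, over 15 libraries (11226 genes). It left out libraries with under 100000 counts or under 10000 genes detected, namely fresh replicates 1 and 4 and pH 6.9 replicate 3. In all 12 comparisons were made. CPM use the TMM-scaled totals of the 18 libraries, and log2 CPM a prior count of 2. Alternatives were DESeq2 1.42.0, its size factors, limma 3.58.1 voom with quality weights, other filters, the replicate block, all 18 libraries and leaving out each library. The fits were also run on simulated counts, whose outcome is not given here. These were drawn without index differences or G+C-linked losses between libraries.

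One count was worth 0.137 to 0.617 CPM in the 15 libraries. A count of 0 allows up to 3 counts. Reads carry no molecular identifiers, so such limits cover counting error only. P-values measure the spread between these libraries. The replicate numbers were taken to pair libraries from the 6 individual mice of the design text. Deviations from set means had a median correlation of 0.043 between libraries of the same number (-0.064 to 0.164, over 0.1 in 4 of 12 pairs) and -0.028 between other libraries.

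Members and lists were chosen with earlier results of these data known. Per-library values are given for a fixed list of members and for other members past the threshold. Other genes are counted by list, and named by highest level unless stated. Gene positions and exons are from the GRCm38 annotation and promoters from RefSeq. One gene and one culture additive are not reported here.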

Additional observations from a re-analysis of the deposited data

Results flagged for a closer look

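Single libraries far from the other 5 of their group were found in 10 of 36 groups of 6 tested, where chance gives about 1 in 20 for independent groups. All 10 lay in the 3 libraries left out of the fit of sets, so these groups were not independent. In fresh replicate 1, Mcm6 was low at 240 CPM, which is 3 counts there. In fresh replicate 4, Pcna was high at 3030 CPM, Gmnn at 1058 CPM and Dut at 979 CPM. In pH 6.9 replicate 3, Pcna was high at 3090 CPM, Tyms at 1018 CPM, Dut at 934 CPM and Gmnn at 699 CPM. There Cdt1 had 0 CPM, and the summed CPM of the 53 genes was 20026, or 12764 without the TMM factor.

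The fold change of pH 6.9 over pH 7.4 differed between even-numbered and odd-numbered mice (even minus odd, log2, edgeR's quasi-likelihood test of the difference) for 13 genes. Each set has its own first index, so pH, mice and index cannot be told apart in these differences. Nucleotide supply held Tk1 (-1.66), Dut (-1.53) and Tyms (-1.19). Helicase loading, activation and clamp loading held Gins1 (-1.99), Rfc4 (-1.21), Rfc3 (-1.12), Gmnn (-1.0) and Rfc5 (-0.92). Synthesis and fork protection held Pold2 (-1.02), Prim1 (-0.89) and Tipin (-0.79). Lig1 (1.56) and Chaf1a (1.27) were positive. For pH 6.9 over fresh, the difference was called for Ung (-2.94), Prim1 (-1.38), Rfc3 (-1.32), Dut (-1.04), Tyms (-0.90) and Rpa1 (0.98).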

How the results depend on the processing

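With 2 or 3 libraries per set, most calls rested on single libraries. Leaving out 1 library at a time gave 0 to 12 called genes for pH 6.9 over pH 7.4 in odd-numbered mice (10 with all), 0 to 2 in even-numbered mice (5) and 8 to 14 for the difference (13). For pH 6.9 over fresh it gave 0 to 3 in even-numbered mice (3) and 1 to 7 for the difference (6). With the replicate block the odd-numbered pH count was 2. With all 18 libraries it was 0 in odd-numbered mice, 0 in even-numbered mice and 0 for the difference, and 0 for pH 6.9 over fresh in even-numbered mice. DESeq2 called 8 genes for pH 6.9 over pH 7.4 in even-numbered mice, and for pH 6.9 over fresh 1 in odd-numbered mice, 6 in even-numbered mice and 10 for the difference, and 1 for the difference of pH 7.4 over fresh. Limma-voom called 9 for pH in even-numbered mice. DESeq2 size factors, and a filter of 10 counts in 3 libraries, each gave 5 for pH 6.9 over fresh in even-numbered mice. With no filter there were 1 for pH 6.9 over fresh in odd-numbered mice, and 2, 1 and 2 for pH 7.4 over fresh in odd-numbered mice, even-numbered mice and the difference. The cause was not tested. Of 551 alternative values of 37 single-gene results, 0 changed sign and 193 no longer passed. Of 180 alternative counts, 145 were within 1.5 times the reported one, and these include every count of 0 that stayed 0. Where genes were called for pH 6.9 over pH 7.4, leaving out 1 library often moved the count further than that. It did so in 4 of 5 fits in odd-numbered mice, 6 of 6 in even-numbered mice and 1 of 11 for the difference.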
